A study of Homo sapiens with 70 samples.

Results

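The cytosolic ribosomal protein genes encode the protein part of the ribosomes that translate nuclear-encoded mRNA. Members were the protein-coding genes of the deposited counts table whose symbols follow the RPL, RPS, RPLP0 to RPLP2 or RPSA naming scheme, and 84 of 78932 genes qualified. They comprised 43 large-subunit genes, 31 small-subunit genes, 3 genes of the acidic stalk and 7 paralog copies (RPL3L, RPL7L1, RPL10L, RPL22L1, RPL26L1, RPL39L and RPS27L). In every test 81 of the 84 passed the filter on low counts, and RPL3L, RPL10L and RPL39L did not. FAU, RACK1 and RPL36AL are among 4 further ribosomal protein genes that fall outside the naming rule and were followed as a separate list.

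The cells were MIA PaCa-2, a pancreatic ductal adenocarcinoma (PDAC) line, in a derivative resistant to sotorasib, an inhibitor of mutant K-Ras. All of them were set up for inducible dCas9-KRAB (Cas9 without its cutting activity, joined to the KRAB repressor), with sgZBTB11 #1, sgZBTB11 #2 or the sgNS guide. Each guide was given DOX (doxycycline, the inducer) or DMSO, and poly(A) RNA was sequenced at 5 hr and on days 1, 3 and 5. The 70 libraries formed 24 groups of 3, except that sgZBTB11 #1 with DMSO on day 5 and sgNS with DMSO on day 1 had 2 each. The labels do not tie libraries to separate cultures, so p-values reflect the spread between libraries, which may be technical, and libraries of a time share their collection, so time and collection cannot be told apart.

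Every eukaryotic ribosome holds 1 copy of nearly all of these proteins, and cells adjust their synthesis mainly through translation of mRNAs that begin with a terminal oligopyrimidine (TOP) tract. The mTOR pathway and the RNA-binding protein LARP1 control that step. Ribosome number cannot be read from transcript levels alone, and free ribosomal proteins are degraded quickly. RPL5 and RPL11, which join the 5S RNA, also bind MDM2 when ribosome assembly is disturbed. Loss of a single copy of several members, among them RPS19, RPS26, RPL5 and RPL11, causes Diamond-Blackfan anaemia.

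The annotated transcription starts are shown for paralog pairs, for RPS21 and RPL21, which declined in culture, and for RPL4 and RPL36A, which did not. Each window covers 15 bases before and 15 bases from the RefSeq start (GRCh38.p14), 5′ to 3′ on the transcribed strand, and capitals mark a C followed by at least 5 pyrimidines.
RPL22, chr1:6199581-6199610, minus strand: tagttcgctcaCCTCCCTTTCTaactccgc
RPL22L1, chr3:170870181-170870210, minus strand: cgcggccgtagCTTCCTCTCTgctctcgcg
RPL26, chr17:8383179-8383208, minus strand: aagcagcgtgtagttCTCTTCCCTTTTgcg
RPL26L1, chr5:172958714-172958743, plus strand: agtcttccaggggtcggcgaacgaaacgcg
RPS27, chr1:153990747-153990776, plus strand: atttccgctttcgCTCCTTTCCggcggtga
RPS27L, chr15:63157463-63157492, minus strand: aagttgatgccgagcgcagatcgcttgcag
RPS21, chr20:62387088-62387117, plus strand: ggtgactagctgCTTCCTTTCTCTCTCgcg
RPL21, chr13:27251543-27251572, plus strand: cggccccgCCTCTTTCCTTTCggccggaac
RPL4, chr15:66504841-66504870, minus strand: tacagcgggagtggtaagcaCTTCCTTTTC
RPL36A, chrX:101390996-101391025, plus strand: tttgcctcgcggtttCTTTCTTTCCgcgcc

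A run of this kind began within 10 bases of an annotated start in 55 of the 67 members with a RefSeq promoter sequence, or 82.1%. The same search, on the transcribed strand only, found it in 6051 of 27305 genes, or 22.2%. RPL22 and its copy RPL22L1 both carried the run, whereas it was found at RPL26 and RPS27 and not at RPL26L1, RPS27L or RPL7L1. It was present both at members that declined in culture and at members that did not. The 55 members with the run had a median log2 change of -0.73 between day 5 and 5 hr in DMSO, and the 11 tested members without it had -0.58. The 11 include the copies RPL26L1, RPL7L1 and RPS27L, and RPL17, whose pyrimidines begin more than 10 bases before its start. The grouping rests on annotated starts and does not list mRNAs that lack a TOP tract.

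Per length, RPS18, a protein of the head of the small subunit, had the highest mean level over the 70 libraries at 6258 TPM (transcripts per 1e6 transcripts), with 4267 to 7321 TPM in single libraries. RPS23, which lies at the decoding centre, followed with a mean of 4808 TPM, then RPL37 with 4633 TPM and RPL26 with 4296 TPM. The median of the 81 tested members was 2005 TPM. The lowest tested means belonged to the copies, with RPL7L1 at 53.99 TPM, RPS27L at 104 TPM, RPL22L1 at 146 TPM and RPL26L1 at 158 TPM. RPL3L, known from striated muscle, had 15 counts over all libraries, RPL10L, known from testis, had 4, and RPL39L had 2. At this depth these 3 were not distinguishable from 0 in most libraries, since a count of 0 allows up to 3 counts.

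Total counts per library were 12068842 to 20627642, and the members took 7.46% to 11.3% of the nuclear-encoded counts. Mitochondrially encoded transcripts took 9.91% to 14.3% of all counts at 5 hr and day 1, 17.8% to 22.2% at day 3 and 25.98% to 33.7% at day 5. ZBTB11 had 34.7 to 38.2 CPM (counts per 1e6 counts, scaled by the trimmed mean of M-values, TMM) in sgZBTB11 #1 with DOX at day 5, against 46.99 and 50.1 CPM with DMSO. The sgZBTB11 #2 libraries had 27.7 to 28.4 CPM with DOX and 51.5 to 53.7 CPM with DMSO, and the sgNS libraries had 47.6 to 53.7 CPM with DOX and 51.04 to 59.1 CPM with DMSO. The epithelial keratins KRT8 and KRT18 had medians of 993 and 1560 TPM, whereas EPCAM and CDH1, which define epithelial cells, did not pass 0.13 and 0.17 TPM. Of 7 markers of leukocytes, endothelium and fibroblasts, COL1A1 was highest with at most 1.3 TPM, and PTPRC, CD3E and DCN had medians of 0.

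**Figure D1:**
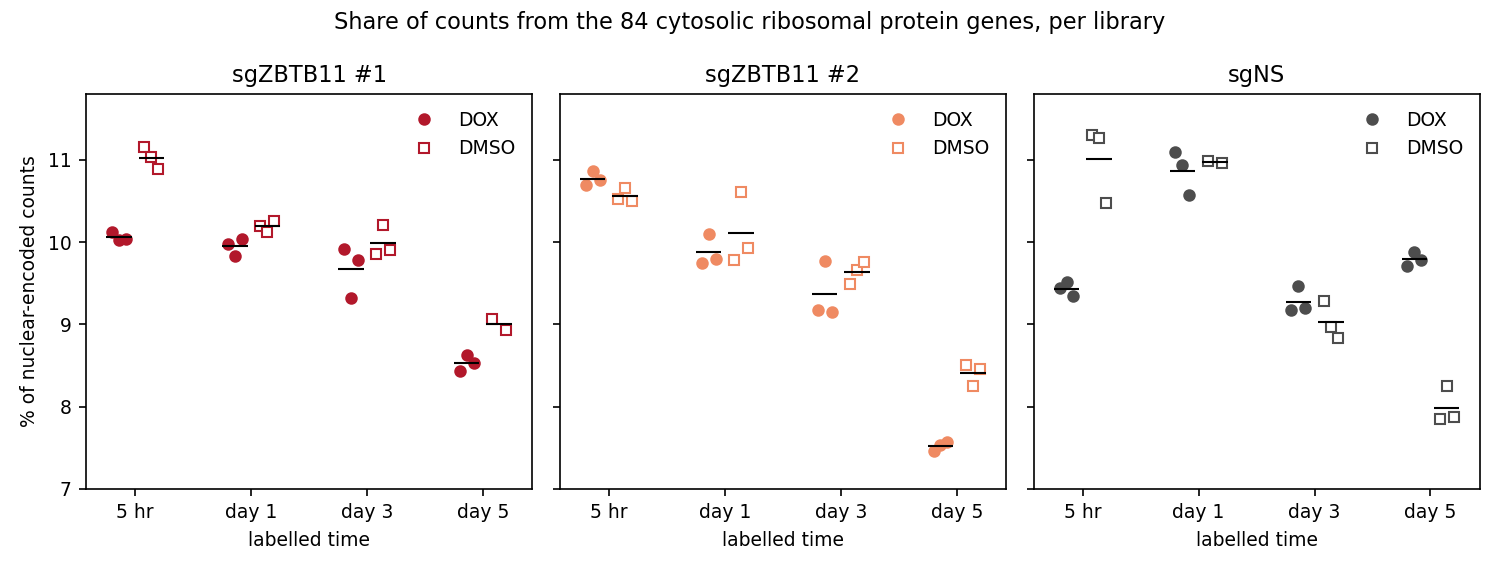
Share of nuclear-encoded counts taken by the 84 members (vertical axis, %, starting at 7) in each library, by labelled time; filled circles are DOX, open squares DMSO, and bars are group means. The share was highest at 5 hr in DMSO, and at day 5 the sgNS libraries with DOX (9.71% to 9.88%) lay above those with DMSO (7.85% to 8.25%), whereas both sgZBTB11 guides with DOX lay below theirs.

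In DMSO, without the inducer, the ribosomal protein mRNAs lost ground over days in culture and did so very unequally. The members' share of nuclear-encoded counts averaged 10.9% ± 0.335 at 5 hr and 9.55% ± 0.451 at day 3 (SD, n = 9 libraries each). On days 1 and 5 it averaged 10.4% ± 0.453 and 8.40% ± 0.442 (SD, n = 8 libraries each). Summed TPM of the members were 201790 to 208260 at 5 hr, 201350 to 209520 at day 1, 160670 to 177080 at day 3 and 120830 to 133630 at day 5. TPM are relative to all transcripts, mitochondrially encoded ones included, and the share of those rose by day 5 as given above. Both measures are shares of the mRNA in a bulk sample, so fewer expressing cells and less RNA per cell cannot be told apart. Between day 5 and 5 hr the median member changed by -0.73 in log2 CPM, and single members spanned -2.26 to 0.31. At day 5, 31 members were below 0.5 times their 5 hr level, 36 were at 0.5 to 0.8 times, and 14 were above 0.8 times. For 66 members every day 5 library lay below every 5 hr library, and for 0 members every day 5 library lay above. No count over all genes stands beside the 66 or the counts in these fold bands, so they are not read as results. A median of all genes is not given for this span. The part of the -0.73 that goes with transcript length was not computed, and the single steps are given below with the length trend removed.

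Step by step, 3 members rose and 72 fell at day 1 relative to 5 hr, with a median log2 change of -0.19, while 34.1% of all tested genes rose and 33.1% fell (edgeR quasi-likelihood test, adjusted p under 0.05). At day 3 relative to day 1, 11 rose and 63 fell, with a median of -0.32, and 41.4% of all genes rose and 38.4% fell. At day 5 relative to day 3, 8 rose and 61 fell, with a median of -0.21, and 30.8% of all genes rose and 34.6% fell. The median of all tested genes was 0.01, 0.05 and -0.02 in these steps. Recomputed in the DOX libraries, 3, 14 and 13 members rose and 63, 61 and 57 fell, with medians of -0.10, -0.28 and -0.17. The medians of all genes there were 0.002, 0.03 and -0.02. The share of all genes called in the DOX libraries is not given.

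The early fall was shared with other short transcripts. The members have a median transcript length of 764 bases, against 2240 for all tested genes, and 77 of the 81 lie in the shortest of 5 equal classes by effective length. Other genes in that class had median log2 changes of -0.14, 0.12 and -0.00034 in the 3 steps. With the trend on length removed, 34 members rose and 17 fell at day 1, with a median of 0.02. On log2(TPM + 1) with limma, 30 rose and 19 fell at that step, with a median of 0.01 beside 0.13 for all genes. With the length trend removed, 17 rose and 59 fell at day 3, and 22 rose and 49 fell at day 5, with medians of -0.26 and -0.10. The share of all genes called with the length trend removed or by limma is not given, so these counts are not read as results.

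The falls in DMSO were large for several small-subunit genes. RPS27A, which is made as a fusion to ubiquitin, had 1080, 1126 and 1311 CPM at 5 hr (lowest, median and highest), 931, 994 and 1157 CPM at day 1, 385, 428 and 461 CPM at day 3 and 266, 289 and 313 CPM at day 5. The libraries of days 3 and 5 did not overlap those of earlier times. The largest step of RPS27A was -1.27 ± 0.03 (SE) at day 3 (adjusted p 1.3e-25). RPS29, a zinc-finger protein of the small-subunit head, had medians of 660, 495, 271 and 125 CPM at 5 hr and days 1, 3 and 5. RPS29 fell by 0.98 at day 3 and by 1.02 at day 5. RPL21 fell by 1.12 at day 3, and RPL39, a protein of the peptide exit tunnel, fell by 0.80 at day 5. RPS3A fell by 0.76 at that last step.

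A minority held its level. RPL4, which reaches into the exit tunnel, had medians of 2004, 1962, 2010 and 2048 CPM at the 4 times, and its 24 group means had the smallest spread of all tested members (SD 0.10 in log2 CPM). RPL18 and RPL22 came next with SDs of 0.12 and 0.13, then RPL23 and RPS6, the substrate of the S6 kinases, with 0.14 each. These SDs cover DOX and DMSO groups, and a small SD did not always mean a level held in DMSO. At day 5 RPL22 and RPL23 were both at 0.798 times their 5 hr level in DMSO, RPL18 at 0.876 and RPS6 at 0.985 times. RPL19 and RPL26 were at 0.993 and 0.999 times. Among the largest SDs were those of RPS29 (0.89), RPS27A (0.84) and RPL21 (0.73). RPL36A rose by 0.24 ± 0.07 at day 3 and 0.34 ± 0.07 at day 5, RPL34 by 0.22 at day 5, RPL14 by 0.18 at day 5, RPL37 by 0.21 at day 3 and RPL31 by 0.16 at day 3. RPL34's rise depended on the scale: by limma on log2(TPM + 1) its value was -0.02, beside a median of -0.175 for all genes. RPL6 and RPLP0 were among the members that rose at day 1, by 0.07 and 0.08, but at day 5 they were at 0.648 and 0.485 times their 5 hr level. RPL37A, RPS21, RPL35A and RPS26 fell most at that step, by 0.35, 0.35, 0.33 and 0.32.

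**Figure D2:**
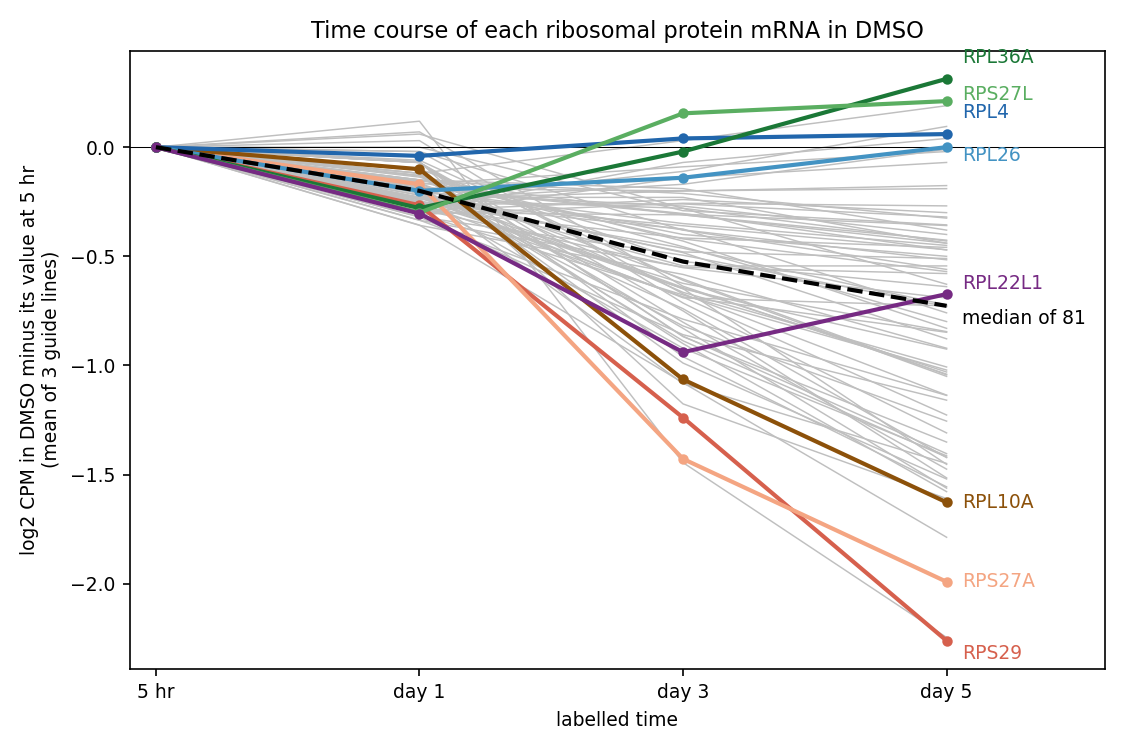
Time course of each tested member in DMSO: log2 CPM, mean of the 3 guide lines, minus its own value at 5 hr (vertical axis) at the 4 labelled times; grey lines are single members, coloured lines named members and the dashed line the median of 81. RPS29 ends lowest, RPL4 and RPL26 end near 0, and RPL36A and RPS27L end highest.

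The SD of a member's level over the 4 times in DMSO had a median of 0.32 in log2 CPM and ranged from 0.05 to 1.15. The SD over the 3 guide lines, each averaged over the 4 times in DMSO, had a median of 0.05. The SD within groups also had a median of 0.05. The root mean square of the DOX change, which is a difference between 2 levels and not an SD, had a median of 0.17. Across the 81 members, which share libraries and span a narrow range of lengths, the log2 change between day 5 and 5 hr correlated with transcript length at a Pearson r of 0.12, with GC content at -0.19 and with mean TPM at -0.01. Transcript length here is the median of a gene's annotated transcripts. The effective length behind the length classes and trends was not correlated with the change.

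The subunit groups are given side by side, and the difference between them was not tested. They are parts of the 81 tested members, of which 63 fell and 11 rose at day 3 relative to day 1. Of all genes, 38.4% fell and 41.4% rose at that step. At day 3 relative to day 1, 2 of 31 small-subunit genes rose and 27 fell (median -0.45), while 8 of 43 large-subunit genes rose and 30 fell (median -0.23). All 3 stalk genes fell, with RPLP0 at -0.71, RPLP1 at -0.27 and RPLP2 at -0.18. Of 8 proteins at the peptide exit tunnel and its rim, 4 rose and 4 fell. All 6 proteins at the decoding site and mRNA channel fell (median -0.46), and so did all 9 Diamond-Blackfan genes examined (median -0.29). RPL5 and RPL11 of the 5S particle fell by 0.29 and 0.13.

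Genes that work with the ribosomal proteins moved alongside. All 4 ribosome genes outside the naming rule fell at day 3 relative to day 1, among them RACK1 at -0.51 and FAU at -0.36. Of 17 other TOP mRNAs, 3 rose and 12 fell, led by the elongation factor gene EEF1B2 (-1.43), the poly(A)-binding protein gene PABPC1 (-1.04) and the nucleolar chaperone gene NPM1 (-0.81). All 47 ribosome biogenesis genes fell (median -0.91), among them EBNA1BP2 (-2.20), the RNA helicase gene DDX21 (-1.77) and FBL, the rRNA methyltransferase fibrillarin (-1.68). Of 10 genes for chaperones and importers of ribosomal proteins all 10 fell, with GRWD1, the RPL3 chaperone, at -1.53. Of 14 regulators 3 rose and 11 fell, beside 41.4% and 38.4% of all genes at this step, with the transcription factor gene MYC at -1.55 and the translation repressor gene EIF4EBP1 at -1.38. At day 5 relative to day 3, 14 biogenesis genes rose and 25 fell, beside 30.8% and 34.6% of all genes.

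The copies changed in share of their pairs, and levels within a pair are compared here in TPM, which is per length. RPS27 and RPS27L moved in opposite directions at day 3. RPS27L, a p53-responsive copy, had 79.7, 92.2 and 102 TPM in its lowest, median and highest DMSO libraries at 5 hr, 78.0, 83.4 and 91.7 TPM at day 1, 110, 118 and 129 TPM at day 3 and 104, 115 and 121 TPM at day 5. RPS27 had medians of 4559, 4766, 2923 and 1827 TPM at those times. The copy's share of the pair was 1.41% to 2.32% at 5 hr and 4.97% to 6.46% at day 5, with no overlap. RPS27L rose by 0.45 ± 0.03 in log2 CPM at day 3 (adjusted p 9.7e-17), and RPS27 fell by 0.64 ± 0.04 (adjusted p 9.6e-13).

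RPL22L1, which can take the place of RPL22 and is repressed by it in mouse, was lower at days 3 and 5 than at earlier times. Its medians were 192, 173, 119 and 120 TPM at 5 hr and days 1, 3 and 5, while RPL22 had 459, 422, 486 and 321 TPM. The share of RPL22L1 was 27.4% to 38.9% at 5 hr, 25.6% to 31.5% at day 1, 15.8% to 22% at day 3 and 23% to 30.3% at day 5. In log2 CPM RPL22L1 fell by 0.64 ± 0.03 at day 3 and rose by 0.28 ± 0.03 at day 5. The day 5 step was 0.08 by limma on log2(TPM + 1), beside a median of -0.175 for all genes. RPL22 changed by -0.06 and -0.10 in log2 CPM at day 3 and day 5, both past the threshold. Its TPM and CPM thus went opposite ways at day 3 and differed in size at day 5, and the pair's share rests on TPM. At 5 hr RPL22 spanned 283 to 522 TPM in DMSO, so the range of the share there is wide.

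RPL26L1 lost ground against RPL26. RPL26L1 had medians of 195, 197, 150 and 91.2 TPM at the 4 times, and its share of the pair fell to 1.71% to 2.88% at day 5, against 3.90% to 4.79% at 5 hr. RPL26 stayed between 3878 and 4830 TPM in all DMSO libraries. RPL7L1, known from ribosome assembly, had medians of 58.9, 64.3, 49.9 and 38.6 TPM, and RPL7 had 1223, 1421, 918 and 542 TPM. The share of RPL7L1 was 4.30% to 5.12% at 5 hr and 6.27% to 8.33% at day 5.

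RPL36A and RPL36AL also diverged. RPL36AL, transcribed from another chromosome, fell by 0.37, 0.17 and 0.34 in log2 CPM at the 3 steps, while RPL36A fell by 0.26 at day 1 and rose thereafter, as given above. RPL36AL made up 23% to 28.8% of the pair's TPM at 5 hr and 9.19% to 16.8% at day 5. RPL36A values carry an added uncertainty, because the processed pseudogene RPL36AP37 was assigned 365528 counts over all libraries, against 410202 for RPL36A. Its share of that total was 42.9% to 47.7% at 5 hr and 47.3% to 50.1% at day 5 in DMSO. With pseudogene counts added to their parents, RPL36A still rose, by 0.36 at day 3 and 0.31 at day 5. RPL23A was the other member with over 10% of its combined counts on pseudogenes, with 343073 counts on RPL23AP42 against 610518 of its own.

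**Figure D3:**
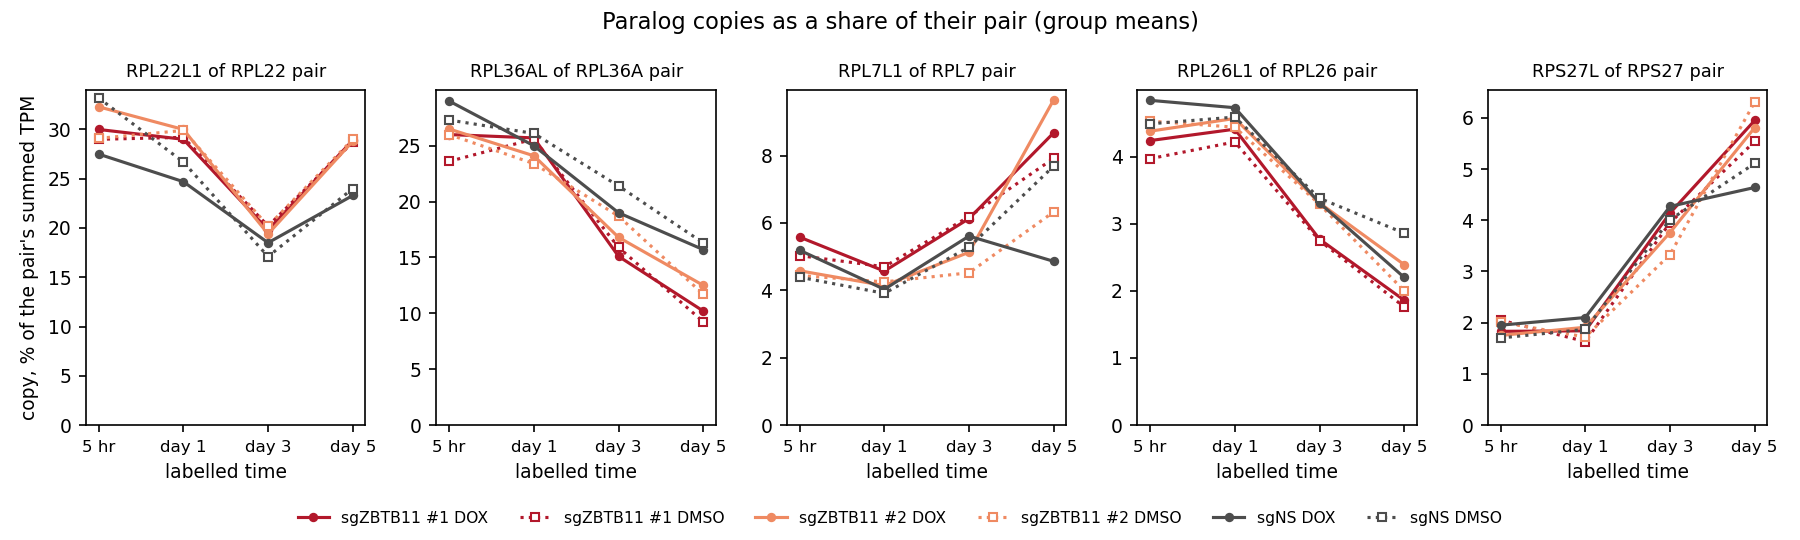
Share of each paralog copy in the summed TPM of its pair (vertical axes, %, from 0) by labelled time; each point is a group mean, with filled circles and solid lines for DOX, open squares and dotted lines for DMSO, and colours for the guides. The RPL22L1 share dips at day 3, those of RPL36AL and RPL26L1 are lower at day 5 than at 5 hr in all lines, and that of RPS27L is highest at day 5.

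Without the inducer, the median member differed little between the guide lines when averaged over the 4 times, but shares of counts differed at single times. At day 1 members averaged 10.19%, 10.11% and 10.97% of nuclear-encoded counts in sgZBTB11 #1, sgZBTB11 #2 and sgNS with DMSO. At day 5 the averages were 8.998%, 8.405% and 7.988% in that order. In DMSO, averaged over the 4 times, 32 members were higher and 16 lower in sgZBTB11 #1 than in sgNS, with 15.0% of all genes higher and 15.0% lower. In sgZBTB11 #2, 7 members were higher and 25 lower than in sgNS, against 8.68% and 10.2% of all genes. These splits depend on the scaling: with the length trend removed, 48 were higher and 11 lower in sgZBTB11 #1, and 22 higher and 18 lower in sgZBTB11 #2. By limma on log2(TPM + 1) the counts were 21 higher and 28 lower, and 16 higher and 20 lower. Neither setting has a share of all genes called beside it. The median member differed by 0.01 and -0.03 on the log2 scale in the edgeR test. Both comparisons share the sgNS libraries. RPL22L1 was higher in sgZBTB11 #1 and in sgZBTB11 #2 than in sgNS, by 0.21 ± 0.03 and 0.16 ± 0.03. RPS23 was lower by 0.20 ± 0.02 and 0.15 ± 0.02. RPL36A, RPL34 and RPL13A were higher in sgZBTB11 #1 by 0.24, 0.17 and 0.16, and RPL26L1 and RPL41 were lower by 0.19 and 0.18. RPL30, RPL35A and RPL15 were higher in sgZBTB11 #2 by 0.13, 0.10 and 0.07, and RPS21 and RPL41 were lower by 0.16 and 0.13.

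At 5 hr most members fell with DOX in the sgZBTB11 #1 and sgNS lines, and few were called in the sgZBTB11 #2 line. The call rule is as above, and percentages of all genes, here and below, are for that rule alone. Counts at an unadjusted p, by DESeq2 or by limma have no such share beside them and are not read as results. In sgZBTB11 #1, 2 members rose and 63 fell (median -0.17; all genes 17.4% and 15.4%). In sgZBTB11 #2, 5 rose and 0 fell (median 0.01; all genes 8.35% and 8.67%), with 3 lower at an unadjusted p under 0.05, 2 by DESeq2 and 3 by limma. In sgNS, 1 rose and 76 fell (median -0.28; all genes 20.9% and 20.1%). As the mean change of the ZBTB11 guides net of sgNS, 61 were higher and 0 lower (median 0.21; all genes 14.7% and 15.2%), with 1 lower at an unadjusted p under 0.05, 0 by DESeq2 and 6 by limma. ZBTB11 itself, by the edgeR test at 5 hr, had DOX changes of -0.00355 in sgZBTB11 #1 (adjusted p 0.96) and -0.172 in sgZBTB11 #2 (adjusted p 0.0072). In sgNS ZBTB11 rose by 0.169 (adjusted p 0.003). The sgNS DMSO replicate 3 library stood apart, with 10.5% of its nuclear-encoded counts on members against 11.3% in the other two, and without it 77 members were called net of sgNS.

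RPS12 had the largest net change at 5 hr. It had 1291, 1327 and 1297 CPM in sgZBTB11 #1 with DOX, against 1522, 1555 and 1523 CPM with DMSO, and 1467, 1515 and 1485 CPM in sgZBTB11 #2 with DOX, against 1433, 1423 and 1395 CPM with DMSO. In sgNS it had 1174, 1190 and 1179 CPM with DOX, against 1686, 1661 and 1497 CPM with DMSO. The groups did not overlap in any line, with DOX lower in sgZBTB11 #1 and sgNS and higher in sgZBTB11 #2. Its net change was 0.38 ± 0.03 (adjusted p 2.4e-11), and RPL35 (0.35) and RPL13 (0.34) were among those that followed. In sgNS alone RPL35, RPS12, RPL23A and RPS21 fell most, by 0.45, 0.45, 0.45 and 0.44. In sgZBTB11 #1 the largest falls were those of RPL36A (0.35), RPL34 (0.32), RPL37A (0.31) and RPS13 (0.31), and RPL3 rose by 0.06. RPS15A, RPL10A and RPS12 rose in sgZBTB11 #2, by 0.10, 0.09 and 0.08, and so did RPS2 (0.07), named after its value was seen. RPL7L1 went the other way, rising by 0.12 in sgZBTB11 #1 and 0.11 in sgNS.

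Transcript length and the mitochondrial share moved with these 5 hr differences. Other genes of the shortest length class had medians of -0.12, 0.03 and -0.18 in sgZBTB11 #1, sgZBTB11 #2 and sgNS. Mitochondrial transcripts averaged 12.3% with DOX against 14.1% with DMSO in sgZBTB11 #1, 13.3% against 12.6% in sgZBTB11 #2 and 12.1% against 14.1% in sgNS. With the length trend removed, 13 rose and 13 fell in sgZBTB11 #1, 4 rose and 9 fell in sgZBTB11 #2 (median -0.01), 4 rose and 43 fell in sgNS (median -0.06), and net of sgNS 26 were higher and 3 lower (median 0.06). RPL7L1 in sgNS then had -0.01. No share of all genes called with the length trend removed stands beside these counts.

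**Figure D4:**
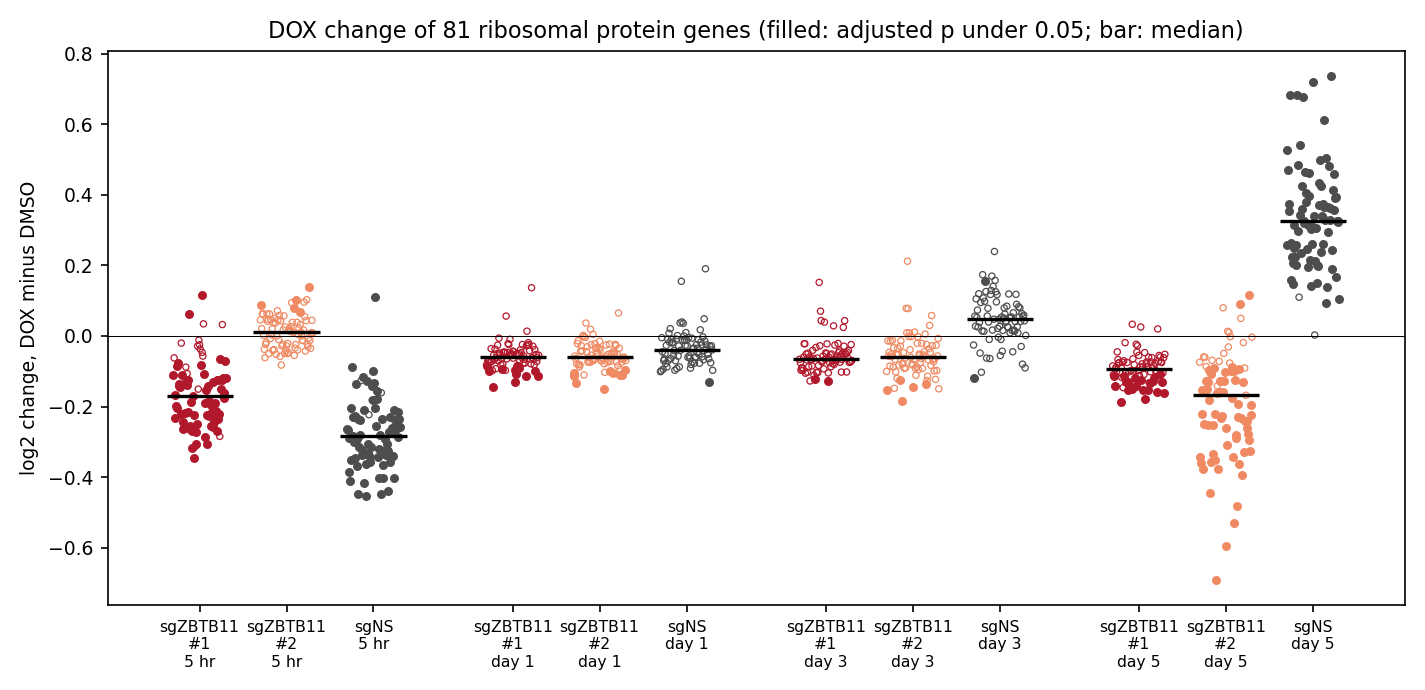
DOX minus DMSO log2 change of each tested member (vertical axis) in every guide line, by labelled time; filled points passed an adjusted p of 0.05, open points did not, and bars are medians of 81. At day 5 the sgNS points lie above 0 with a median of 0.33, whereas most points of both sgZBTB11 lines lie below 0.

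On days 1 and 3 few members were called for DOX. The percentages of all genes are for an adjusted p under 0.05. None are given for counts at an unadjusted p, by DESeq2 or by limma, which are not read as results. At day 1, 0 rose and 12 fell in sgZBTB11 #1 (median -0.06; all genes 1.64% and 3.20%), 0 rose and 9 fell in sgZBTB11 #2 (median -0.06; all genes 3.43% and 4.45%) and 0 rose and 1 fell in sgNS (median -0.04; all genes 0.559% and 1.63%). At an unadjusted p under 0.05 the rises numbered 1, 0 and 1 and the falls 31, 30 and 19, and DESeq2 and limma each called 0 rises in all 3 lines. Net of sgNS, 0 were higher and 0 lower at day 1 (all genes 0.0123% and 0.0614%), with 0 and 2 at an unadjusted p under 0.05 and 0 by DESeq2 or limma. At day 3, 0 rose and 2 fell in sgZBTB11 #1 (all genes 0.192% and 0.541%), 0 rose and 5 fell in sgZBTB11 #2 (all genes 0.276% and 0.895%) and 1 rose and 1 fell in sgNS (all genes 0.403% and 0.475%). At an unadjusted p under 0.05, 1 rose and 28 fell in sgZBTB11 #1, 0 rose and 32 fell in sgZBTB11 #2, and 16 rose and 3 fell in sgNS. DESeq2 called 1 rise in sgZBTB11 #1 and 0 in sgZBTB11 #2, and limma called 0 in both. Net of sgNS, 0 were higher and 5 lower at day 3 (median -0.10; all genes 0.156% and 0.336%), with 0 higher and 42 lower at an unadjusted p under 0.05, 0 higher and 8 lower by DESeq2 and 0 of either by limma.

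At day 1 RPLP0, the stalk base, fell by 0.15 in sgZBTB11 #2, RPL13 by 0.13 and RPL10A by 0.11. In sgZBTB11 #1 RPL7L1, RPS9 and RPS2 fell by 0.13, 0.11 and 0.11. At day 3 RPL29, RPL10A, RPL7, RPS2 and RPL27 fell in sgZBTB11 #2 by 0.18, 0.15, 0.14, 0.14 and 0.12, and RPL7L1 and RPL3 fell in sgZBTB11 #1 by 0.13 and 0.12. In sgNS RPL26 rose by 0.15 and RPL10A fell by 0.12. The net test at day 3 called RPL22L1 (-0.27, adjusted p 0.039), RPL34 (-0.25), RPL26 (-0.21), RPL29 (-0.19) and RPS25 (-0.17). RPL27 and RPS25 were named after their values were seen. RPL26 had 1599, 1501 and 1586 CPM in sgZBTB11 #1 with DOX, against 1620, 1677 and 1671 CPM with DMSO, and 1412, 1477 and 1399 CPM in sgZBTB11 #2 with DOX, against 1455, 1513 and 1533 CPM with DMSO. In sgNS it had 1517, 1543 and 1482 CPM with DOX, against 1385, 1388 and 1333 CPM with DMSO. The DOX and DMSO libraries overlapped in sgZBTB11 #2 and not in the others. These small counts of members moved with single libraries. At day 1 leaving out any sgZBTB11 #1 library other than DOX replicate 3 gave 2 to 5 calls in that line. In sgZBTB11 #2 the count was 24 without DMSO replicate 1, 4 without DMSO replicate 2 and 4 without DOX replicate 3, and in sgNS it was 0 without DOX replicate 1 and 0 without DMSO replicate 2, which leaves 1 DMSO library assumed to vary like the other groups. At day 3 the sgZBTB11 #1 count was 0 without DMSO replicate 1, DMSO replicate 2 or DOX replicate 3, 1 without DOX replicate 2 and 4 without DOX replicate 1. The sgZBTB11 #2 count at day 3 was 13 without DOX replicate 2 and 3 without DMSO replicate 2, DOX replicate 1 or DOX replicate 3. In sgNS, day 3 gave 6 without DMSO replicate 1, 0 without DMSO replicate 3 or DOX replicate 2, and 1 without any other library. Net of sgNS, 18 members were called at day 3 without sgNS DMSO replicate 1, 15 without sgZBTB11 #2 DOX replicate 2 and 11 without sgZBTB11 #1 DOX replicate 1. The count was 5 without sgZBTB11 #1 DMSO replicate 3 or DOX replicate 3, and was 1 to 3 without any other library.

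At day 5 nearly all members rose with DOX in sgNS, most fell in sgZBTB11 #2, and a minority fell in sgZBTB11 #1. As before, the percentages of all genes belong to the edgeR calls at an adjusted p alone. In sgZBTB11 #1, 0 rose and 22 fell (median -0.09; all genes 0.363% and 0.773%), with 0 higher and 65 lower at an unadjusted p under 0.05, 0 and 24 by DESeq2 and 0 of either by limma. In sgZBTB11 #2, 2 rose and 59 fell (median -0.17; all genes 3.00% and 6%). In sgNS, 79 rose and 0 fell (median 0.33; all genes 8.87% and 8.47%), with 80 higher and 0 lower at an unadjusted p under 0.05, 79 and 0 by DESeq2 and 53 and 3 by limma. Net of sgNS, 0 were higher and 80 lower (median -0.47; all genes 8.95% and 10.3%), with the same counts at an unadjusted p under 0.05, 0 and 79 by DESeq2 and 2 and 58 by limma, and the exception was RPL7L1 at 0.02 ± 0.04. The net change shares its sgNS libraries with the sgNS change, whose median was the largest in size of the 3 lines. Of the 22 members lower in sgZBTB11 #1, 19 were also lower in sgZBTB11 #2, where 59 of all 81 were lower, so that overlap is not read as a result. The sgZBTB11 #1 count rests on few libraries: without DMSO replicate 1, which leaves 1 DMSO library assumed to vary like the other groups, it was 2, and without the other DMSO library, DOX replicate 1 or DOX replicate 3 it was 7, 9 and 11.

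RPL30 and RPL7 led the net decreases. RPL30 had 327, 329 and 336 CPM in sgZBTB11 #1 with DOX, against 364 and 351 CPM with DMSO, and 265, 279 and 274 CPM in sgZBTB11 #2 with DOX, against 437, 438 and 443 CPM with DMSO. In sgNS it had 465, 500 and 493 CPM with DOX, against 297, 310 and 286 CPM with DMSO. DOX libraries were lower without overlap in both sgZBTB11 lines and higher without overlap in sgNS. The DOX change of RPL30 was -0.10 in sgZBTB11 #1 (adjusted p 0.099), -0.69 ± 0.03 in sgZBTB11 #2 (adjusted p 2.2e-25) and 0.68 ± 0.03 in sgNS (adjusted p 6.6e-26), and the net change was -1.08 ± 0.03 (adjusted p 2.6e-30). RPL7, an RNA-binding protein of the large subunit, had 348, 357 and 371 CPM in sgZBTB11 #1 with DOX, against 393 and 388 CPM with DMSO, and 300, 302 and 299 CPM in sgZBTB11 #2 with DOX, against 458, 446 and 455 CPM with DMSO. In sgNS RPL7 had 668, 671 and 665 CPM with DOX, against 382, 420 and 391 CPM with DMSO. Its net change was -1.08 ± 0.03 (adjusted p 2e-30). RPS27A and RPL23A followed with -0.98 each.

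Within the lines, RPL21, RPS9 and RPS27A were among the members that fell most in sgZBTB11 #1, by 0.19, 0.16 and 0.16. In sgZBTB11 #2, RPS13 fell by 0.53 after RPL30 (0.69) and RPL7 (0.60), and RPS21 rose by 0.09. In sgNS, RPS27A, RPL7, RPL13A and RPL23A rose most, by 0.74, 0.72, 0.68 and 0.68. RPL13A, the protein of the translation-silencing GAIT complex, had 2331, 2429 and 2382 CPM in sgNS with DOX, against 1430, 1527 and 1402 CPM with DMSO, and 1403, 1442 and 1424 CPM in sgZBTB11 #2 with DOX, against 1863, 1802 and 1861 CPM with DMSO. In sgZBTB11 #1 RPL13A had 1899, 1988 and 1941 CPM with DOX, against 2089 and 2073 CPM with DMSO. The sgNS libraries had the lowest DMSO levels for RPL13A and RPL30, while for RPL7 they overlapped the sgZBTB11 #1 DMSO libraries.

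In 4 of 5 pairs the copy had the smaller net change at day 5, and RPL22L1 was the exception. Net changes were 0.02 for RPL7L1 against -1.08 for RPL7, -0.15 ± 0.06 for RPL26L1 against -0.72 ± 0.03 for RPL26, and -0.22 ± 0.05 for RPS27L against -0.42 ± 0.03 for RPS27. RPL22L1 and RPL22 had -0.35 and -0.33, and RPL36AL and RPL36A -0.11 and -0.31. RPL3, RPL10 and RPL39, whose copies were not tested, had -0.60, -0.34 and -0.19. Differences within pairs were not tested. The RPL7L1 share of its pair's TPM averaged 8.68% with DOX against 7.92% with DMSO in sgZBTB11 #1, 9.66% against 6.33% in sgZBTB11 #2 and 4.86% against 7.69% in sgNS.

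Every subunit group was lower net of sgNS at day 5, beside 10.3% of all genes lower and 8.95% higher. All 43 large-subunit genes were lower (median -0.47), as were the 31 small-subunit genes (median -0.53), the 3 stalk genes (median -0.28), the 8 exit-tunnel proteins, the 6 decoding-site proteins, the 9 Diamond-Blackfan genes and both 5S-particle genes. RPL11 had -0.71 and RPL5 -0.36. The 4 ribosome genes outside the rule were lower, among them FAU at -0.31, RACK1 at -0.31 and RPL36AL at -0.11. Of 17 other TOP mRNAs, 0 were higher and 13 lower (median -0.24), led by the initiation factor genes EIF3L (-0.54) and EIF3H (-0.54) and by EEF1B2 (-0.43). With DOX, EIF3L and EIF3H rose by 0.33 and 0.38 in sgNS and fell by 0.28 and 0.24 in sgZBTB11 #2. Of 47 biogenesis genes 1 was higher, RRN3, a cofactor of RNA polymerase I (0.47). In the other direction 10 were lower, with EBNA1BP2 at -0.51 and UTP18 at -0.46. These net values include the change in sgNS, where RRN3 fell by 0.39 with DOX and EBNA1BP2 and UTP18 rose by 0.32 and 0.34. UTP18 also fell in sgZBTB11 #2, by 0.26. Of 10 chaperones 1 was higher and 1 lower, a share near that of all genes, and none was called in either sgZBTB11 line. The importer gene TNPO1 (0.22) fell by 0.18 in sgNS, and PDCD2, the RPS2 chaperone (-0.40), rose by 0.32 there. Of 14 regulators 6 were higher and 2 lower, with SP1 at 0.38, GABPA at 0.34 and TBP at -0.44. With DOX, SP1 fell by 0.32 in sgNS, and GABPA rose by 0.28 in sgZBTB11 #1. TBP rose by 0.33 in sgNS and fell by 0.34 in sgZBTB11 #2.

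The median DOX changes at day 5 were smaller but kept their direction when length was taken into account. Other genes of the shortest length class had medians of -0.03, -0.05 and 0.06 for DOX in sgZBTB11 #1, sgZBTB11 #2 and sgNS, and -0.10 net of sgNS. With the length trend removed, 71 members rose and 0 fell in sgNS (median 0.22). In sgZBTB11 #1, 0 rose and 9 fell, and in sgZBTB11 #2, 5 rose and 40 fell. Net of sgNS, 0 were higher and 70 lower (median -0.29). The share of all genes called under this and the other settings of this paragraph is not given. With length and GC content removed together the net decreases numbered 62 (median -0.26). On log2(TPM + 1) with limma, 53 rose and 3 fell in sgNS, and 2 were higher and 58 lower net of sgNS. The mitochondrial share averaged 32.96% with DOX against 33.6% with DMSO in sgZBTB11 #1, 31.4% against 31.3% in sgZBTB11 #2 and 29.5% against 26.3% in sgNS. Without mitochondrially encoded genes 80 members were again lower net of sgNS, and any further part of that share in the result was not tested.

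**Figure D5:**
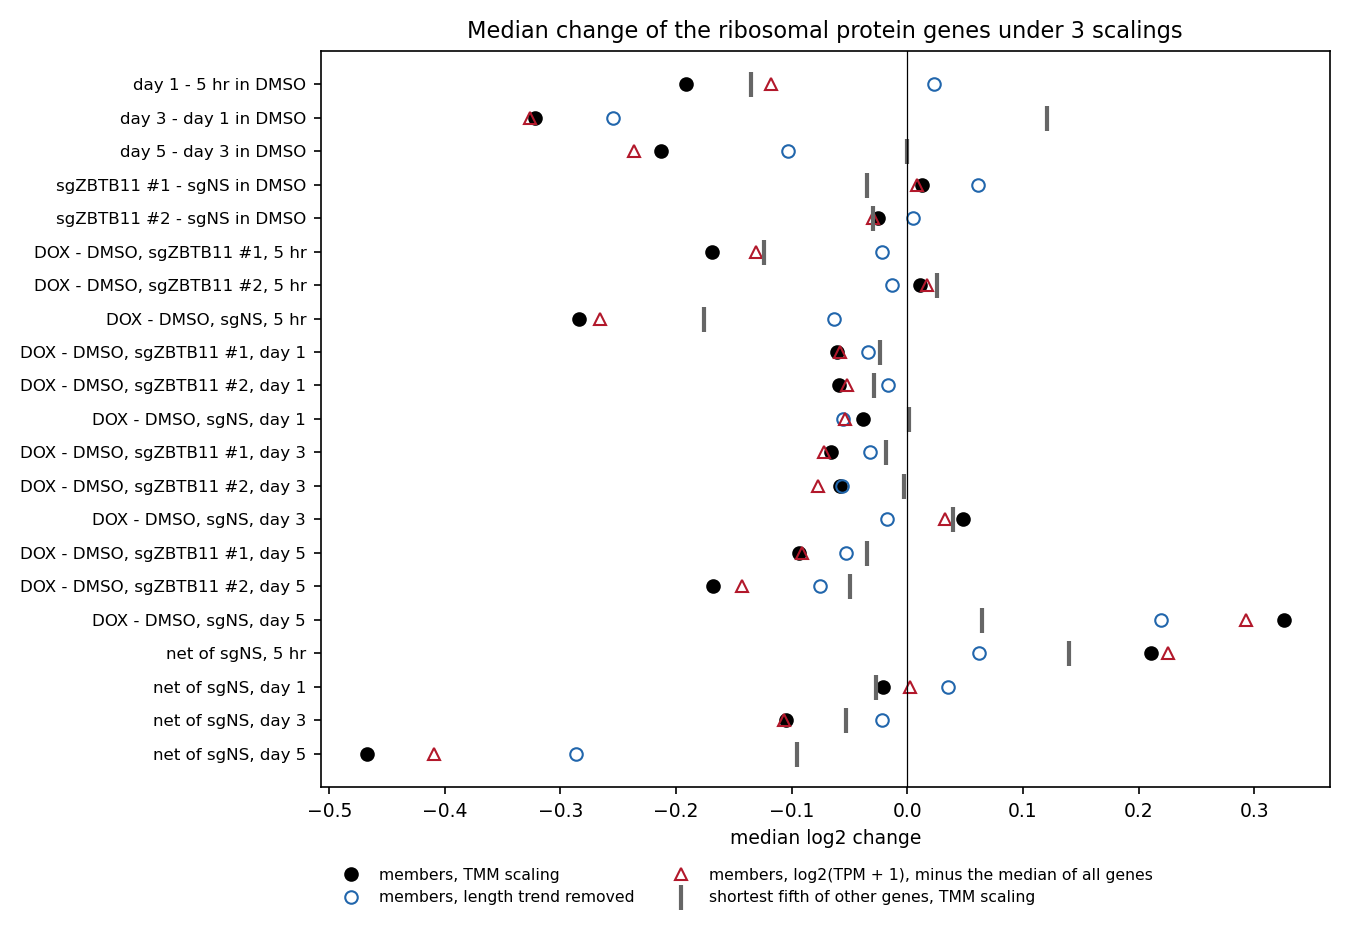
Median log2 change of the members in each of the 21 comparisons (rows) with TMM scaling (filled circles), with the length trend removed (open circles) and on log2(TPM + 1) minus the median of all genes (triangles), beside the median of other genes in the shortest length class with TMM scaling (ticks). The decreases on days 3 and 5 of culture and the day 5 DOX differences keep their side of 0 under all 3 scalings, while the day 1 change in DMSO, the sgZBTB11 #2 difference in DMSO, the sgZBTB11 #2 DOX change at 5 hr, the net change at day 1 and the sgNS DOX change at day 3 do not.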

How the data were processed

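Poly(A) RNA-seq of the 70 libraries (2x75 paired reads, per the labels' protocols) was deposited by the authors in the form of RSEM expected counts and TPM per gene on GRCh38.p14, per the submitters' processing notes. Strand, aligner and software versions were not given in the sources used here. Overlapping antisense genes and near-identical copies are uncertain; 57 members had non-whole counts in over 90 percent of libraries. Total counts were 12068842 to 20627642 per library. No 2 replicates of a group were identical.

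The deposited expected counts were rounded and tested with edgeR 4.0.16 (TMM, filterByExpr, robust quasi-likelihood) in R 4.3.3, with Benjamini-Hochberg adjustment over all genes tested and a threshold of 0.05. DOX changes were fitted within each time, over all guides; the net change is the mean of the ZBTB11 guides' DOX minus DMSO changes minus that of sgNS, and comparisons against sgNS share its libraries. Time steps (mean over guides) and guide differences (mean over times) came from 1 fit of the DMSO libraries. CPM levels used TMM over all libraries. As alternatives, DESeq2 1.42.0, RLE scaling, omission of the low-count filter, a replicate block, limma 3.58.1 on log2(TPM + 1) of genes with at least 1 TPM in 3 libraries, mitochondrially encoded genes left out, trends on length or length and GC content removed, 1 fit of all libraries, DOX libraries for the time steps and leaving out each library were run. Adding pseudogene counts was chosen after seeing the data. Scripts were tested on simulated data. Replicate numbers did not pair the samples.

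Named members were, for each comparison, up to 4 called members per direction with the largest change and a mean of at least 5 CPM. The members, lists and tests were chosen with earlier results of these data known. A few members that this rule names are not reported here.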

Additional observations from a re-analysis of the deposited data

Results flagged for a closer look

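The DOX change of 80 members at day 5 differed between the mean of the ZBTB11 guides and sgNS, by the edgeR test of the difference itself. The same test called 61 members at 5 hr, in the opposite direction, and 5 members at day 3. All 80 were lower and all 61 higher in the ZBTB11 guides net of sgNS. The mitochondrial share moved with the day 5 difference in sgNS (29.5% with DOX against 26.3% with DMSO), and 80 members were again lower without the mitochondrially encoded genes. Leaving those genes out kept 99 of 99 named calls, and any further part of that share in the result was not tested. Dixon's check for an outlying library was not run on groups of 2 or 3, and each library was left out in turn instead.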

How the results depend on the processing

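Counts of members called are given here per setting, without the share of all genes called in that setting. With limma on log2(TPM + 1), 49 were called at day 1 relative to 5 hr. For DOX, limma called 34 in sgZBTB11 #1 and 8 in sgZBTB11 #2 at 5 hr, 1, 2 and 0 in sgZBTB11 #1, sgZBTB11 #2 and sgNS at day 1, 0, 10 and 9 at day 3, 0 in sgZBTB11 #1 at day 5 and 0 net of sgNS at day 3. With the length trend removed, DOX calls in sgZBTB11 #1, sgZBTB11 #2 and sgNS were 26, 13 and 47 at 5 hr, those in sgNS were 12 at day 1, those in sgZBTB11 #2 and sgNS were 12 and 8 at day 3, those in sgZBTB11 #1 were 9 at day 5, and net of sgNS 29 were called at 5 hr and 2 at day 3. With length and GC trends removed, 47 were called at day 1 relative to 5 hr, DOX calls in sgZBTB11 #1, sgZBTB11 #2 and sgNS were 33, 15 and 47 at 5 hr and 5, 17 and 10 at day 3, those in sgZBTB11 #1 and sgNS were 6 and 15 at day 1, those in sgZBTB11 #1 were 12 at day 5, and net of sgNS 37 were called at 5 hr and 3 at day 3. Without a filter on low counts, members called numbered 2 in sgZBTB11 #2 at 5 hr, 2 in sgNS at day 1, 1, 10 and 7 at day 3 in sgZBTB11 #1, sgZBTB11 #2 and sgNS, and 14 net of sgNS at day 3. RLE scaling gave 2 and DESeq2 3 in sgNS at day 1, and DESeq2 gave 8 net of sgNS at day 3. In 1 fit of all libraries, sgZBTB11 #1, sgZBTB11 #2 and sgNS had 20, 15 and 3 at day 1, sgZBTB11 #1 and sgZBTB11 #2 had 4 and 8 at day 3, and sgZBTB11 #1 had 8 at day 5. The replicate block gave 1 member in sgNS at day 3 and 80 net of sgNS at day 5; same-numbered libraries did not deviate together (lowest correlation -0.159, highest 0.192).

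Leaving out single libraries gave 2 to 4 members in sgZBTB11 #2 at 5 hr; 2 to 10, 4 to 24 and 0 to 1 in sgZBTB11 #1, sgZBTB11 #2 and sgNS at day 1; 0 to 4, 3 to 13 and 0 to 6 at day 3; 2 to 21 in sgZBTB11 #1 at day 5; and 1 to 18 net of sgNS at day 3. Reversed values were -0.0071 for RPLP0 at day 1 in DOX libraries, -0.024 for RPL34 at day 5 by limma, and -0.014 and -0.046 for RPL7L1 in sgNS at 5 hr with length and with length and GC removed. The cause was not tested. Of 99 named values, 99 kept their call with RLE scaling, 96 with DESeq2, 74 with limma and 86 with the length trend removed. Values are relative to all mRNA, and groups of 2 or 3 libraries limit the small differences.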
